A study of Mus musculus with 35 samples.

Results

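The genes of oxidative phosphorylation (OXPHOS) were described in bulk RNA of the medial prefrontal cortex (mPFC) of mice. Members were the rows of the expression matrix whose symbols name a subunit series of the respiratory chain or ATP synthase (Nduf, Sdh, Uqcr, Cyc1, Cox4 to Cox8, Atp5 and the mt- protein genes), without the Ndufaf assembly factors and pseudogene symbols. This gave 95 of 14870 genes, of which 82 were nuclear and 13 were encoded by mitochondrial DNA (mt-). The 82 nuclear members comprised 37 of complex I, 4 of complex II, 9 of complex III, 15 of complex IV and 17 of complex V. The 13 mt- members comprised 7 of complex I, 1 of complex III, 3 of complex IV and 2 of complex V. The symbols also brought in Atp5s and Atp5sl, which are related to assembly rather than being subunits, and Ndufa4, which is named for complex I and is now known as a subunit of complex IV. All 95 members were tested, since no filter on low values was applied here, and 2 of them (Cox7a1 and Cox6b2) had a mean below 0 on the deposited scale of log2 CPM, the log2 of counts scaled to library size.

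OXPHOS couples the passage of electrons through complexes I to IV to the pumping of protons across the inner mitochondrial membrane, and complex V (ATP synthase) uses that gradient to make ATP. Complexes I, III, IV and V are built from proteins of both genomes, while complex II is wholly nuclear. In cortex this pathway carries most of the energy supply of synaptic transmission, and acetate, one of the treatments here, can enter it as acetyl-CoA through the tricarboxylic acid cycle.

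The study compared wild-type (WT) mice with Shank3-deficient mice (KO), which lack normal amounts of a scaffold protein of excitatory synapses. Mice of each genotype were given water as the control, antibiotics (abx), acetate, or both (abx_and_acetate). The groups held 6 WT_control, 4 KO_control, 5 WT_acetate, 5 KO_acetate, 4 WT_abx, 3 KO_abx, 4 WT_abx_and_acetate and 4 KO_abx_and_acetate libraries, each of tissue punches, with both sexes in every group. The allele, the strain, the ages, the antibiotics, the doses and the duration of treatment were not given in the sources used here.

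The 35 libraries held 12.8 to 28.0 M reads over the listed genes, and their labelled RNA integrity numbers (RIN) lay between 8.8 and 9.3. The level of Shank3 ranged from 4.07 to 5.11 log2 CPM in KO and from 7.48 to 8.85 in libraries labelled WT. In the libraries labelled WT_abx 4, WT_acetate 2 and WT_acetate 5, the neighbouring gene Acr was at 3.62 to 4.56, between the other WT libraries (at most 0.83) and the KO libraries (at least 5.04). Genes of the Y chromosome went against the sex label in 4 libraries, those labelled WT_acetate 2, WT_acetate 4, WT_acetate 5 and WT_abx 3. Neuronal markers (6 genes) summed to between 12.43 and 12.83 log2 CPM in every library, whereas 8 striatal markers ranged from 7.22 to 10.05. These neuronal markers are general ones and do not tell cortex from striatum. The genes of the upper cortical layers were lowest in KO_acetate 1, 0.65 below their means over all libraries. In bulk tissue, fewer cells of a type and less RNA per cell cannot be told apart.

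The mt- members were the most abundant per length. The complex IV subunit mt-Co1, the catalytic core of cytochrome c oxidase, stood at 13.6 log2 CPM per kilobase of transcript, and the 13 mt- members ranged from 10.1 to 13.6. The highest nuclear member on that scale was Cox4i1, the ubiquitous form of a regulatory complex IV subunit, at 9.20. Among nuclear members with a mean of at least 3 log2 CPM, the median level per kilobase was 5.90 for complex I (36 genes), 5.90 for complex II (4 genes), 6.45 for complex III (9 genes), 7.25 for complex IV (11 genes) and 6.63 for complex V (17 genes). The mt- genes together took 4.43% to 6.99% of a library's reads over the listed genes, and the 82 nuclear members 0.742% to 0.971%.

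Several paralogous subunits were far apart in level. Cox4i1 averaged 8.79 log2 CPM over the 35 libraries and Cox4i2, its hypoxia-related and vascular counterpart, 0.02. Cox6a1 averaged 7.97 and the muscle form Cox6a2 1.63, while Cox6b1 averaged 6.25 and the testis form Cox6b2 -0.43. Cox7a2 was at 6.08 and the muscle form Cox7a1 at -0.45, while Cox7a2l was near Cox7a2 at 6.47. The proton-carrying c subunit of ATP synthase comes from several genes that encode the same mature protein, and these were unequal as well: Atp5g3 was at 7.27, Atp5g1 at 6.64 and Atp5g2 at 3.15. These are levels per library, not per length, and the sources used here do not say how reads shared between close copies were counted. The mt-Atp8 and mt-Atp6 genes overlap, as do mt-Nd4l and mt-Nd4, and mt-Nd5 overlaps mt-Nd6 on the other strand, so reads of each pair may be split between them. How RNA was selected and whether strand was used in counting was not given in the sources used here.

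No member passed an adjusted p of 0.05 in any of the 16 comparisons (limma, Benjamini-Hochberg adjustment over all 14870 genes). In the same fit 108 genes (0.726% of all) passed in abx_and_acetate against control in WT, none of them a member, and 0 to 3 in each other comparison. Of KO against WT, 0.0202% of all genes passed in control and over treatments and 0.00672% in acetate, and 0.00672% passed in acetate against control in WT. The members' log2 folds were small, and what follows describes their direction, their spread over libraries and their unadjusted p-values. The members vary together, so a count of directions is not a count of independent results.

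**Figure D1:**
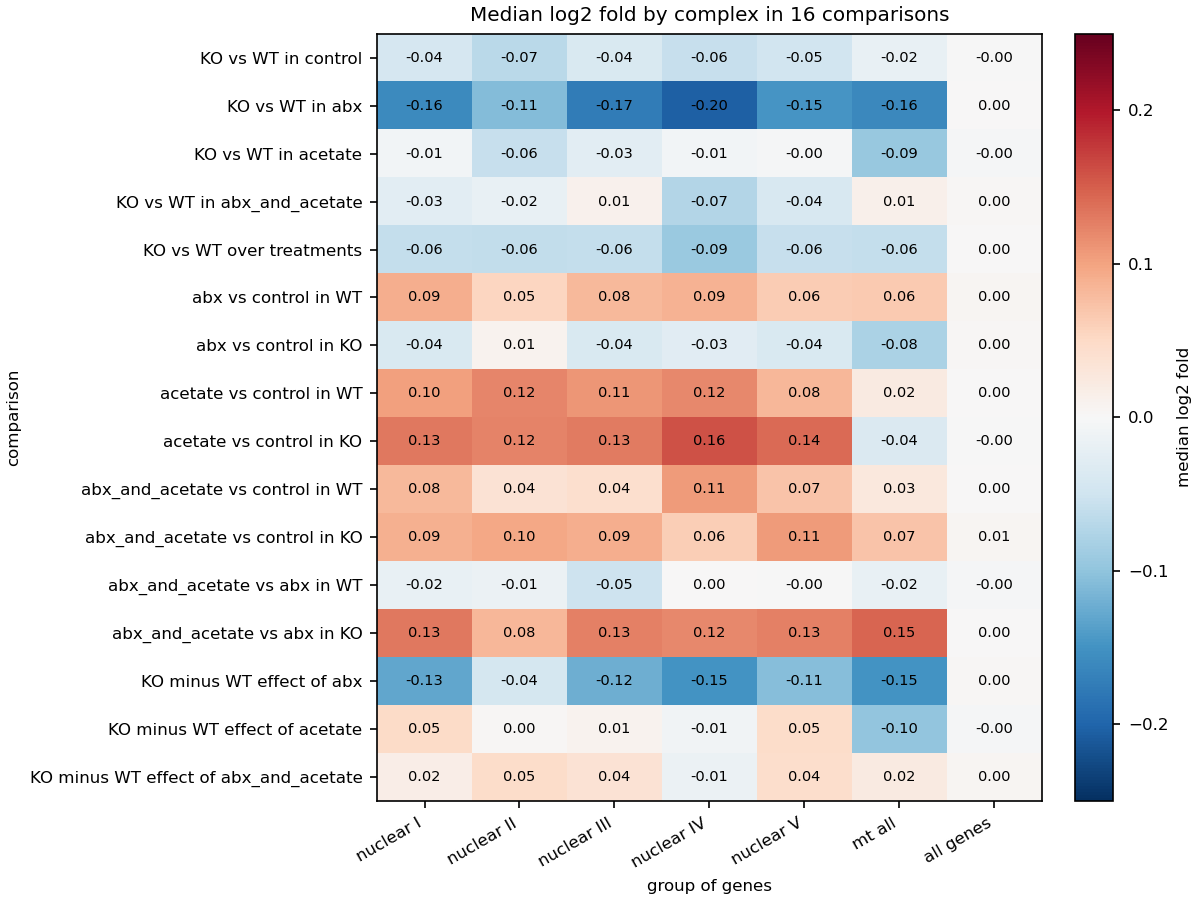
Median log2 fold of the nuclear members of each complex, of the 13 mt- members and of all 14870 genes (columns) in 16 comparisons (rows), with red above and blue below 0. The median of the nuclear complex IV members was lowest in KO against WT under abx (-0.20) and highest in acetate against control in KO (0.16).

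Nuclear OXPHOS genes lay lower in KO_abx than in WT_abx: 80 of 82 had a log2 fold below 0, as had 49.7% of all genes, and the median log2 fold was -0.16 with a median standard error of 0.089. All 13 mt- members were also below 0, with a median log2 fold of -0.16 (median standard error 0.14). The nuclear medians were -0.16 for complex I, -0.11 for complex II, -0.17 for complex III, -0.20 for complex IV and -0.15 for complex V. The 2 members not below 0 were Ndufb2 and Cox6b2. In this comparison 25 nuclear members and 0 mt- members had an unadjusted p under 0.05, against 3.78% of all genes, and 0 members passed the adjusted threshold (0.0134% of all genes did). The count of 25 was 14 without WT_abx 2 (4.31% of all genes) and 6 without KO_abx 1 (2.76%).

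The mean deviation of the 82 nuclear members from their means over all libraries separated these groups. It was -0.21, -0.05 and -0.12 on the log2 scale in the KO_abx libraries and 0.05, 0.08, -0.03 and 0.08 in those labelled WT_abx. Every KO_abx value lay below every WT_abx value, although KO_abx 2 and the library labelled WT_abx 3 were close. For the 13 mt- members the corresponding deviations were -0.17, 0.03 and -0.18 in KO_abx and 0.27, 0.13, -0.30 and 0.17 in WT_abx. Here the groups overlapped, because the lowest of all was the library labelled WT_abx 3. The median mt- log2 fold was -0.30 without that library, -0.25 without KO_abx 2, -0.10 without KO_abx 3 and -0.08 without WT_abx 1.

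**Figure D2:**
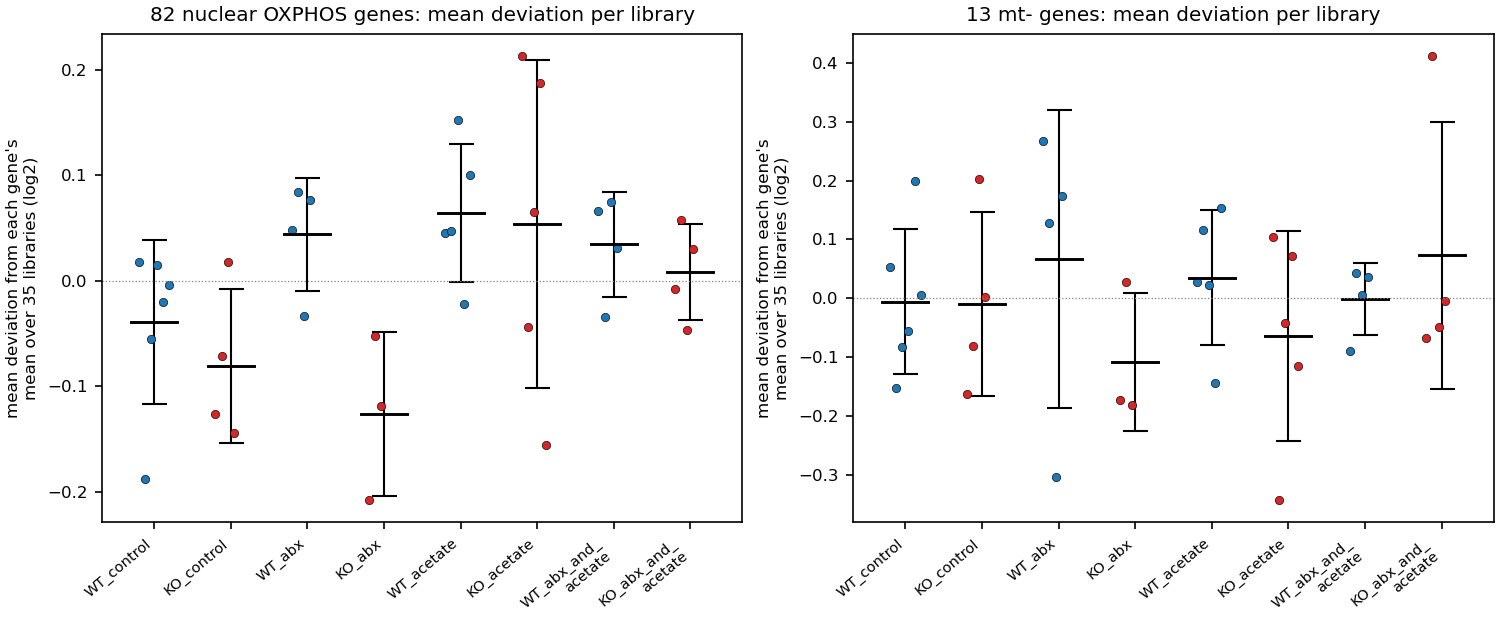
Mean deviation of 82 nuclear (left) and 13 mt- (right) OXPHOS genes from each gene's mean over 35 libraries, on the log2 scale, by group; each point is a library (blue WT, red KO), the long bar is the group mean and the whisker 1 SD. The KO_abx libraries lie below the WT_abx libraries in the left panel (-0.21 to -0.05 against -0.03 to 0.08) and overlap them in the right.

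Single nuclear members followed this pattern. Ndufa6, an accessory subunit of complex I (chromosome 15, 82350140 to 82354322, minus strand, GRCm38), was at 5.06, 5.19 and 5.15 log2 CPM in KO_abx and at 5.37, 5.44, 5.34 and 5.53 in WT_abx. The groups did not overlap, with means of 5.13 ± 0.07 (SD, n = 3) and 5.42 ± 0.08 (SD, n = 4). The log2 fold of Ndufa6 was -0.28 ± 0.09 (standard error, limma, unadjusted p = 0.00383, adjusted p = 0.995). Ndufa6 lies on the chromosome that carries Shank3, and without antibiotics its log2 fold in KO against WT was -0.05 ± 0.07 in control and -0.02 ± 0.07 in acetate.

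Cox4i1 was at 8.55, 8.79 and 8.66 log2 CPM in KO_abx and at 8.88, 8.94, 8.82 and 9.03 in WT_abx. Again no KO_abx library reached the lowest WT_abx library. The log2 fold of Cox4i1 was -0.25 ± 0.08 (limma, unadjusted p = 0.00397, adjusted p = 0.995). Atp5o, the subunit that ties the catalytic head of ATP synthase to its stalk, was at 6.54, 6.63 and 6.55 in KO_abx and at 6.76, 6.81, 6.78 and 6.77 in WT_abx, a log2 fold of -0.21 ± 0.07 (limma, adjusted p = 0.995).

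Sdha, the flavoprotein of complex II, was at 8.70, 8.71 and 8.72 log2 CPM in KO_abx and at 8.75, 8.90, 8.88 and 8.72 in the WT_abx libraries. The highest KO_abx library lay just below the lowest WT_abx library, and the log2 fold was -0.11 ± 0.06 (limma, adjusted p = 0.995). Uqcrq, a small subunit of complex III, had a log2 fold of -0.23 ± 0.09 with overlapping groups. Ndufa4l2, a low-expressed paralog of Ndufa4 known from vascular and hypoxic cells, was at 0.58, 0.70 and 0.28 in KO_abx and at 1.13, 1.57, 0.86 and 1.25 in WT_abx, which did not overlap. Its log2 fold of -0.69 ± 0.23 was the lowest among the members. Of the mt- members, mt-Nd3 had the lowest value, -0.23 ± 0.14, and mt-Co1 was at 13.96, 14.23 and 14.05 in KO_abx and 14.47, 14.32, 13.95 and 14.40 in WT_abx. For mt-Co1 the lowest of these libraries was the one labelled WT_abx 3.

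In 27 of the 82 nuclear members every KO_abx library lay below every WT_abx library, as in 2.69% of all genes, and in none of the 13 mt- members. The 27 included 12 of complex I, 2 of complex II, 1 of complex III, 5 of complex IV and 7 of complex V. The count was 57 without KO_abx 2 and 46 without the library labelled WT_abx 3, where 7.92% and 5.14% of all genes did not overlap.

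Cytosolic ribosomal protein genes, which are not OXPHOS genes, had the same direction in the same libraries: 77 of 79 were below 0, with a median log2 fold of -0.19. All 13 enzymes of the tricarboxylic acid cycle were below 0 (median -0.077), such as citrate synthase Cs at -0.12 ± 0.06, and 58 of 78 mitochondrial ribosomal protein genes were (median -0.069). Genes that handle mitochondrial DNA and its transcripts did not lean either way, with 7 of 15 below 0. Assembly factors were below 0 in 11 of 14 cases for complex I and 15 of 22 for complex IV. None of these list genes passed the adjusted threshold. Markers of other cells moved too: 5 of 5 blood genes were below 0 (median -0.92), 10 of 10 myelin genes (median -0.38), 8 of 8 endothelial genes (median -0.22), 5 of 5 pericyte genes (median -0.15) and 3 of 3 choroid plexus genes (median -0.43), against 3 of 6 neuronal and 3 of 7 meningeal genes. The library labelled WT_abx 4, one of those with intermediate Acr, stood apart in these lists. Its choroid plexus genes lay 4.54, its meningeal genes 2.37, its endothelial genes 0.59 and its pericyte genes 0.57 above their means over all libraries. Without it, 79 of 82 nuclear members were below 0 and 20 had an unadjusted p under 0.05 (3.34% of all genes). The summed blood level was 6.02 to 7.03 log2 CPM in KO_abx and 7.05 to 8.0 in WT_abx, and the myelin sums overlapped (10.18 to 12.05 and 11.04 to 11.85). Their part in the OXPHOS values was not tested.

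In KO against WT with water alone, nuclear members were below 0 in 72 of 82 cases, but the median log2 fold was only -0.047 with a median standard error of 0.075. In this comparison 50.7% of all genes were below 0, 2 nuclear members (Ndufv1 and Atp5g1) had an unadjusted p under 0.05 and 4% of all genes had; 0.0202% passed the adjusted threshold. The count of 2 was 4 without WT_control 2 and 0 without WT_control 4, WT_control 5, WT_control 6, KO_control 1 or KO_control 4. The nuclear median was -0.082 without WT_control 2 and -0.023 without KO_control 4. Under acetate the nuclear members divided into 33 above and 49 below 0 (median -0.008, while 50.9% of all genes were below 0), and under abx_and_acetate into 26 above and 56 below (median -0.034, 49.2% of all genes). The number above 0 under acetate was 58 without KO_acetate 5 and 20 without KO_acetate 4, so the more common direction depended on single libraries. No member had an unadjusted p under 0.05 in these 2 comparisons, where 5.97% and 3.7% of all genes had. The mt- medians with water, acetate and abx_and_acetate were -0.018, -0.095 and 0.013. With water it was 0.028 without KO_control 1 and -0.090 without KO_control 3. With acetate it was -0.027 without KO_acetate 2, and with abx_and_acetate -0.074 without KO_abx_and_acetate 2. The effect of abx in KO minus that in WT had a median of -0.12 over the nuclear members, with 78 of 82 below 0 (49.3% of all genes) and 13 of 13 mt- members below 0. No member passed for this difference (limma, smallest adjusted p above 0.99), and 1 member, the complex I accessory subunit Ndufa2 (-0.29 ± 0.12), had an unadjusted p under 0.05, as 2.47% of all genes had. The nuclear median of this difference was -0.075 without KO_abx 1, and the count of 1 was 6 without KO_abx 2. Its mt- median was -0.15, and ran from -0.28 without the library labelled WT_abx 3 to -0.077 without WT_abx 1.

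Averaged over the treatments, 78 of 82 nuclear and 13 of 13 mt- members were lower in KO than in WT, with a median log2 fold of -0.060 for each (49.6% of all genes were below 0). The smallest unadjusted p belonged to Cox4i1 at -0.11 ± 0.04 (limma, adjusted p = 0.928), followed by its complex IV partner Cox6a1 at -0.13 ± 0.04. The iron-sulphur subunit Sdhb was at -0.073 ± 0.034, Uqcrq at -0.084 ± 0.041, Atp5o at -0.085 ± 0.033 and mt-Co3 at -0.086 ± 0.058 (limma, adjusted p from 0.931 to 0.957). An unadjusted p under 0.05 was found for 18 nuclear members and 5.25% of all genes, and 0.0202% of all genes passed the adjusted threshold. That count was 7 without KO_abx 1, 10 without KO_acetate 2, 11 without KO_abx_and_acetate 3, 30 without KO_abx 2 and 35 without KO_acetate 1. The mt- median was -0.097 without the library labelled WT_abx 3 and -0.040 without KO_acetate 2. Without the 3 libraries of intermediate Acr, 76 of 82 nuclear members were lower in KO, and without the 4 libraries that go against their sex label 82 of 82 were. The KO_abx and WT_abx libraries enter this average.

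**Figure D3:**
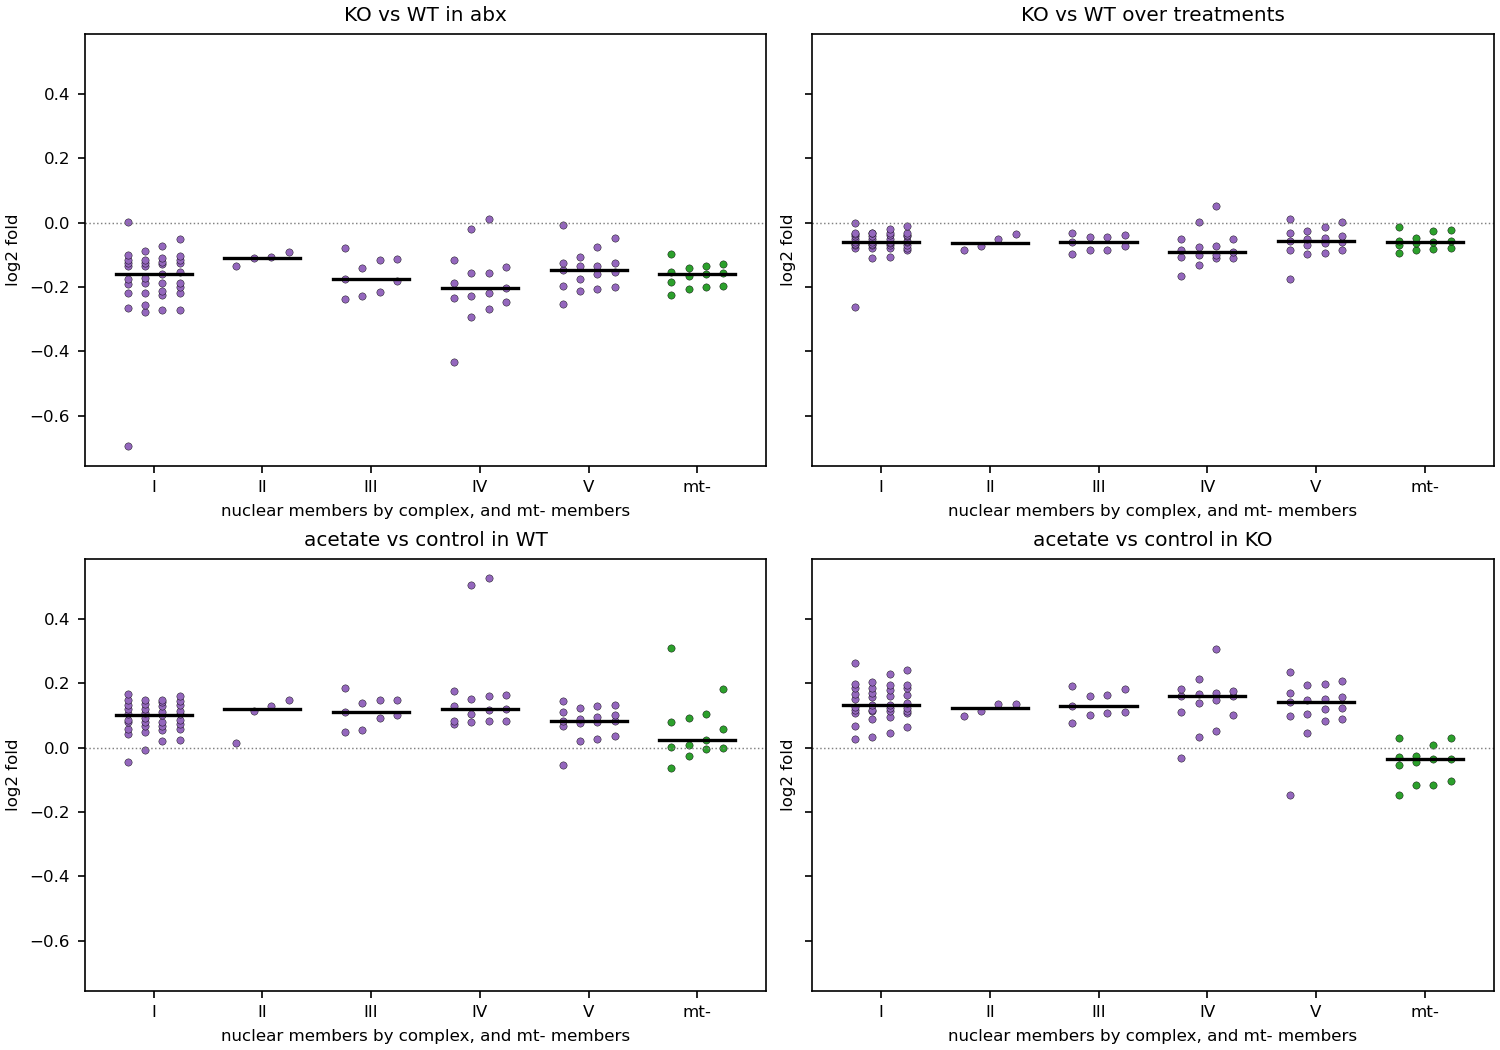
Log2 fold of every nuclear member by complex (purple) and of the mt- members (green) in 4 comparisons; each point is a gene and the bar is the median. Points lie mostly below 0 in both KO against WT panels, and under acetate the nuclear points lie mostly above 0 while the mt- medians are 0.02 (WT) and -0.04 (KO).

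With acetate against control, nuclear OXPHOS genes lay slightly higher in both genotypes. In WT, 79 of 82 nuclear members had a log2 fold above 0, as had 50.3% of all genes, with a median of 0.10 (median standard error 0.072). Most WT_acetate libraries are doubtful by label: WT_acetate 2, WT_acetate 4 and WT_acetate 5 go against their sex label. Of these, WT_acetate 2 and WT_acetate 5 also have intermediate Acr. With single libraries left out, 72 to 81 of the 82 were above 0 in WT, but each such fit keeps other doubtful libraries. Leaving out the 3 libraries of intermediate Acr, or the 4 that go against their sex label, moved the nuclear median in WT by less than 0.073, the spread between libraries. The second of these settings keeps only WT_acetate 1 and WT_acetate 3 of the WT_acetate group. In KO, 80 of 82 were above 0, as were 49.6% of all genes, with a median of 0.14 (median standard error 0.078). The mt- members did not share this: their medians were 0.023 in WT (9 of 13 above 0) and -0.036 in KO (3 of 13 above 0). The mt- median changed sign without the library labelled WT_acetate 2 in WT (-0.009), and without KO_control 3 (0.026) or KO_acetate 2 (0.033) in KO. WT and KO were each set against their own controls. The difference of the acetate effects between genotypes had a median of 0.036 over the nuclear members, and no member passed for it. In this difference 1 member, the iron-sulphur subunit Ndufs8 (0.21 ± 0.10), had an unadjusted p under 0.05, as 3.65% of all genes had. The nuclear median of the difference was -0.012 without KO_acetate 1 and 0.087 without KO_acetate 5, and the count of 1 was 7 without KO_acetate 5.

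Ndufs7, an iron-sulphur subunit of the electron path of complex I, had the smallest unadjusted p of the members in both genotypes. In WT_control it ranged from 6.12 through a median of 6.15 to 6.25 log2 CPM, and in WT_acetate it was at 6.33, 6.24, 6.45, 6.26 and 6.26. The highest control library thus overlapped the lowest acetate library. The log2 fold of Ndufs7 was 0.17 ± 0.05 (limma, unadjusted p = 0.00469, adjusted p = 0.279). In KO_control Ndufs7 was at 6.11, 6.12, 6.06 and 6.12, and in KO_acetate at 6.40, 6.22, 6.27, 6.46 and 6.17, with no overlap and a log2 fold of 0.20 ± 0.06 (limma, unadjusted p = 0.00171, adjusted p = 0.205).

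In WT, the Rieske protein Uqcrfs1 of complex III had a log2 fold of 0.18 ± 0.07, the complex II membrane anchor Sdhd 0.15 ± 0.07 and Cox6b1 of complex IV 0.16 ± 0.07, each with overlapping groups (limma, adjusted p from 0.371 to 0.495). Atp5g3 was the 1 nuclear member whose groups did not overlap in WT, against 0.74% of all genes; it ranged from 7.07 through a median of 7.24 to 7.25 in WT_control and was at 7.31, 7.37, 7.33, 7.26 and 7.43 in WT_acetate. Leaving out single libraries gave 1 to 8 such members, where 0.881% to 1.86% of all genes did not overlap. It gave 8 without the library labelled WT_acetate 4 (1.3% of all genes), 4 without the library labelled WT_acetate 2, WT_control 1 or WT_control 4, and 2 without WT_acetate 1, WT_control 3, WT_control 5 or WT_control 6. Among the mt- members, mt-Nd6, the subunit encoded on the light strand, had a log2 fold of 0.31 ± 0.14 (limma, adjusted p = 0.501), with 9.83 in the library labelled WT_acetate 5 against 9.04 to 9.25 in the others; without that library it was 0.17.

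In KO, Atp5g3 had a log2 fold of 0.19 ± 0.06, Ndufb6 of complex I 0.24 ± 0.07, Uqcrq 0.18 ± 0.08, Sdhb 0.14 ± 0.07 and Cox7a2l, which helps to join complexes III and IV, 0.16 ± 0.06 (limma, adjusted p from 0.226 to 0.374). The groups did not overlap for 3 nuclear members (Ndufs7, Ndufv1 and Ndufa9, the last 2 named after their values were seen), against 1.9% of all genes. That count was 10 without KO_acetate 5 (3.42% of all genes) and 6 without KO_control 2 (3.55%) or KO_control 3 (3.83%). The mean deviation of the nuclear members was 0.21, -0.04, 0.07, 0.19 and -0.16 in KO_acetate and -0.13, -0.07, 0.02 and -0.14 in KO_control. The KO_acetate libraries thus spread over the whole range, with KO_acetate 1 the highest and KO_acetate 5 among the lowest of all 35.

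No member passed the adjusted threshold in WT (0.00672% of all genes did) or in KO (0%). An unadjusted p under 0.05 was found for 13 nuclear members in WT (9.41% of all genes) and 26 in KO (13% of all genes), all above 0, and for 1 and 0 mt- members. In WT the count was 2 without WT_control 2, 2 without the library labelled WT_acetate 5, 5 without WT_acetate 3 and 27 in a fit of the groups compared only (10.1% of all genes). In KO it was 14 without KO_control 1, 11 without KO_control 4, 9 without KO_acetate 1, 12 without KO_acetate 4, 58 without KO_acetate 5 (16.1% of all genes) and 4 in a fit of the groups compared only. In that last fit 8.43% of all genes had one, a share above that of the nuclear members. The median nuclear log2 fold in WT was 0.059 without WT_control 2.

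Beside these values, the tricarboxylic acid cycle genes were above 0 in 13 of 13 cases in WT and 12 of 13 in KO, and cytosolic ribosomal protein genes in 71 and 74 of 79. Atpif1, the inhibitor of ATP synthase, was at 0.20 ± 0.06 in WT and 0.20 ± 0.07 in KO, and Cycs, the mobile carrier cytochrome c, at 0.02 ± 0.09 and 0.22 ± 0.10. Among the regulators, Nrf1, a transcription factor of many of these genes, was at -0.12 ± 0.09 in WT and -0.28 ± 0.10 in KO. None of these passed the adjusted threshold. Myelin genes were above 0 in 0 of 10 cases in WT (median -0.38) and in 10 of 10 in KO (median 0.46), meningeal genes in 0 of 7 in both, and striatal genes in 8 of 8 in KO (median 0.57). Astrocyte genes lay lower with acetate in both genotypes. Their median deviation was 0.089 in WT_control and -0.040 in WT_acetate, and 0.18 in KO_control and -0.13 in KO_acetate. The astrocyte values overlapped in both genotypes (-0.12 to 0.23 in KO_control, -0.14 to -0.095 in KO_acetate). The summed striatal level in KO_acetate ranged from 7.22 to 10.05 log2 CPM, against 7.34 to 7.39 in KO_control, and the myelin sum from 10.38 to 13.25 against 10.62 to 12.01. The highest striatal and myelin levels were both those of KO_acetate 1, the library with the highest nuclear OXPHOS deviation. Its striatal genes lay 3.04 above their means over all libraries, while KO_acetate 2 to 5 lay between -0.19 and 0.11. Without KO_acetate 1, 78 of 82 nuclear members were above 0 and the median over the 82 was 0.095. The part of the other markers in these values was not tested.

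**Figure D4:**
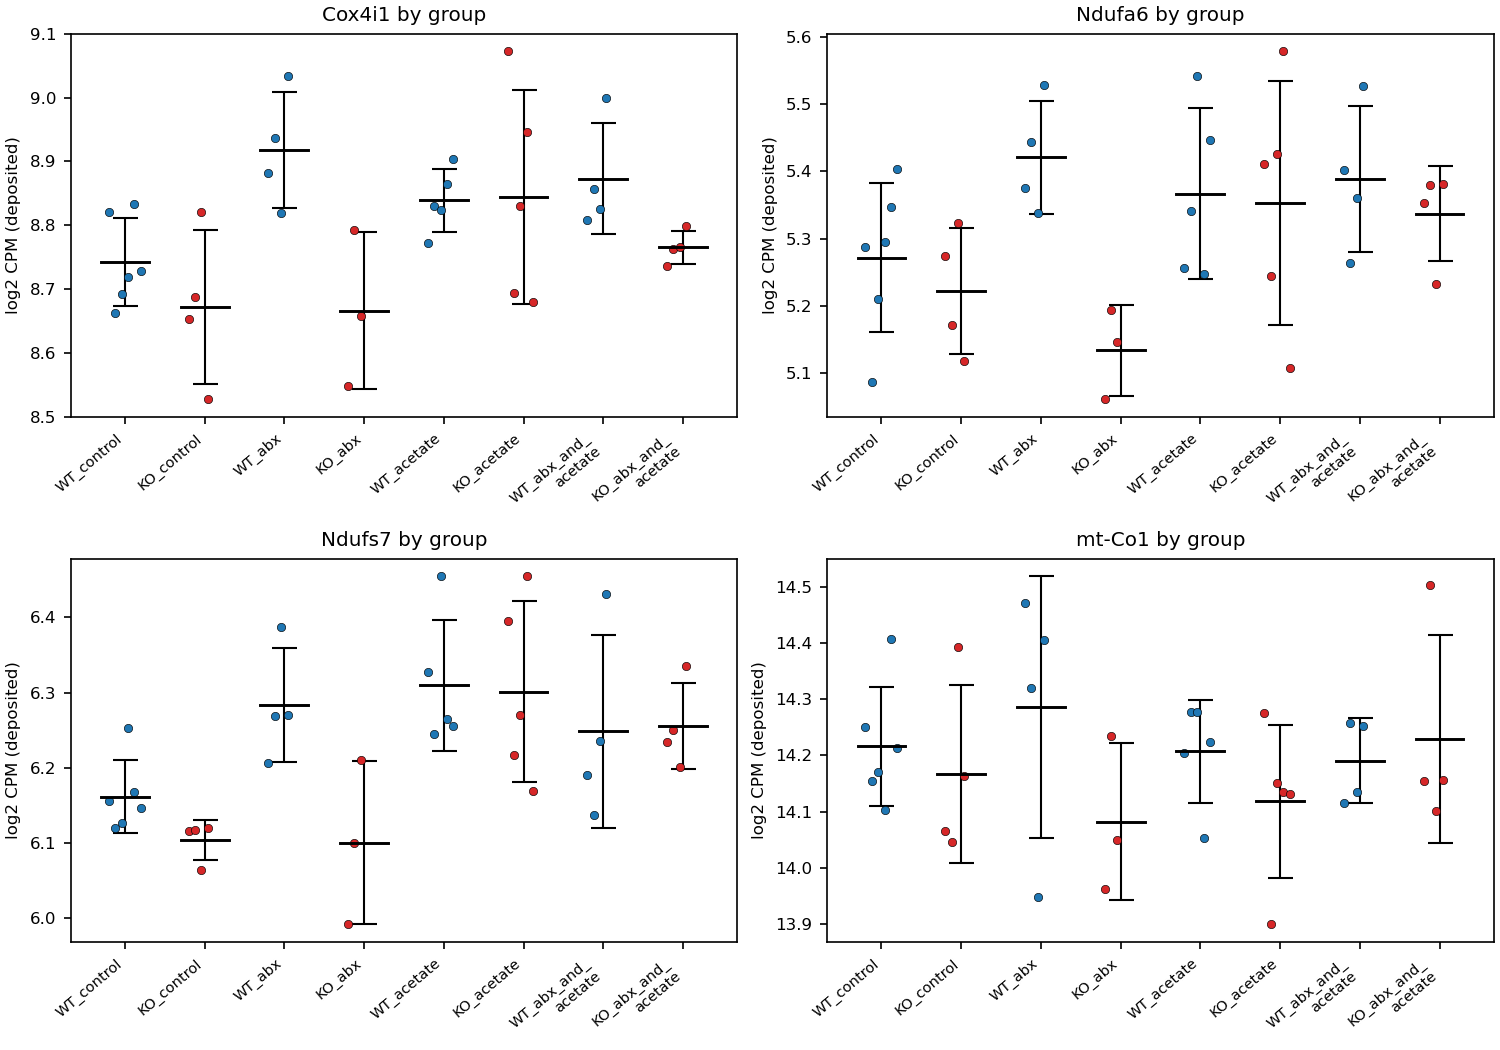
Deposited log2 CPM of Cox4i1, Ndufa6, Ndufs7 and mt-Co1 in each library (points, blue WT and red KO) by group, with the group mean (long bar) and 1 SD (whisker); the axes do not start at 0. Ndufa6 and Cox4i1 do not overlap between KO_abx and WT_abx, and Ndufs7 does not between KO_acetate and KO_control.

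Antibiotics alone against control gave 75 of 82 nuclear members above 0 in WT (median 0.082, 51.4% of all genes above 0) and 23 of 82 in KO (median -0.035, 50.9% of all genes). Antibiotics with acetate against control gave 73 of 82 in WT (median 0.080, 50.1% of all genes) and 75 of 82 in KO (median 0.090, 51.5% of all genes). Adding acetate to antibiotics gave 35 of 82 above 0 in WT (median -0.015, 49.3% of all genes) and 79 of 82 in KO (median 0.13, 50.2% of all genes), where 13 of 13 mt- members were also above 0 (median 0.15). Without WT_control 2 the medians in WT were 0.051 (65 of 82 above 0) for antibiotics alone and 0.046 (55 of 82) for both treatments. Without KO_abx 1, antibiotics alone in KO gave 44 of 82 above 0 and a median of 0.008. The median for both treatments in KO was 0.057 without KO_control 4, and that for adding acetate in KO 0.081 without KO_abx 1. The KO_abx libraries are the reference of this last comparison and were also those that lay low against WT_abx, so the comparisons share samples.

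Under antibiotics alone, 9.05% of all genes had an unadjusted p under 0.05 in WT, a larger share than of the members. The 6 members that had one, all above 0, were Ndufa2 (0.23 ± 0.08), Cox7a2l (0.17 ± 0.06), Cox4i1 (0.18 ± 0.07), Ndufb9, Ndufs7 and Cox6a1 (limma, adjusted p from 0.322 to 0.534). The count was 11 without the library labelled WT_abx 3 and 3 without the library labelled WT_abx 4. In KO 1 member had one, the complex I subunit Ndufa12, which lay lower at -0.23 ± 0.11 (3.3% of all genes). With both treatments, 4 members had one in WT, where 14.4% of all genes had, a larger share than of the members. The 4 were Ndufa4 (0.17 ± 0.07), Atp5o (0.13 ± 0.06), Cox4i1 (0.14 ± 0.07) and Ndufa9 (0.12 ± 0.06). That count was 11 without WT_abx_and_acetate 2, 1 without WT_abx_and_acetate 4 and 0 without WT_control 2. In KO 8 members had one, a share near that of all genes (7.42%). Of the 8, 6 were in complex I, among them Ndufa3 (0.23 ± 0.10) and Ndufv1 (0.12 ± 0.05). The count of 8 was 16 without KO_control 3 and 1 without KO_abx_and_acetate 4. For the effect of both treatments in KO minus that in WT, no member had an unadjusted p under 0.05, against 4.53% of all genes, and for abx_and_acetate against abx in WT none had, against 6.12%.

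For abx_and_acetate against abx in KO, Atp5o was at 6.71, 6.80, 6.75 and 6.78 log2 CPM in KO_abx_and_acetate, above every KO_abx library (6.54, 6.63 and 6.55), with a log2 fold of 0.19 ± 0.07 (limma, unadjusted p = 0.017, adjusted p = 1). Ndufa4l2 was at 1.02, 1.18, 1.11 and 1.16, above every KO_abx library (0.58, 0.70 and 0.28), with a log2 fold of 0.63 ± 0.23. Cox4i2 was at 0.62 ± 0.31, Uqcrq at 0.18 ± 0.09, Sdha at 0.083 ± 0.058 and mt-Nd3 at 0.23 ± 0.14. An unadjusted p under 0.05 was found for 8 nuclear members, against 2% of all genes. That count was 2 without KO_abx 1, 4 without KO_abx 3, 16 without KO_abx 2 (3.47% of all genes) and 14 without KO_abx_and_acetate 3 (2.15%). Groups did not overlap for 24 nuclear members (2.84% of all genes), and the count was 55 without KO_abx 2 (9.12% of all genes) and 37 without KO_abx_and_acetate 3 (4.73%). The mt- median was 0.059 without KO_abx_and_acetate 2 and 0.095 without KO_abx 3. Meningeal genes were below 0 in 7 of 7 cases (median -0.78), and their part was not tested.

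Members varied together from library to library. After group and sex were fitted, the median correlation between pairs of nuclear members over the 35 libraries was 0.53, and between pairs of mt- members 0.80. A correlation above 0.5 with the mean of the other nuclear members was found for 67 of the 82. Of the genes outside the members, 5.76% had one above 0.5 with the nuclear mean. The nuclear mean and the mt- mean had r = 0.598 (rho = 0.651), and r = 0.632 without the 2 libraries farthest from the median. The nuclear mean had r = 0.602 with the mean of the cytosolic ribosomal protein genes, 0.024 with RIN and -0.12 with depth. All points share a library, hence its scaling and its tissue makeup, and these values are descriptions. The genes outside the members with the highest correlation with the nuclear mean were the row named 15-Sep (a symbol turned into a date), the ribosomal protein gene Rps9, Chchd10, Rnf7 and Cox14, with r from 0.833 to 0.858.

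Members differed in how closely they moved with the others. Cox5b of complex IV had r = 0.93 with the mean of the other nuclear members, Ndufb8 0.92 and Atp5j2 0.92. At the other end Sdha had 0.06, the c-subunit gene Atp5g2 0.08, the assembly-related Atp5sl 0.10 and the complex I core subunit Ndufs1 0.11. Atp5a1, a subunit of the catalytic head of ATP synthase, had 0.24 and the NADH-binding subunit Ndufv1 0.29. Low values were not confined to long transcripts: Atp5g2 has 586 bases and a mean of 3.15 log2 CPM, and the low-expressed Ndufa4l2, Cox6b2, Cox7a1 and Cox4i2 had 0.10 to 0.30. Sdha and Ndufv1 also had the smallest residual SD between libraries, 0.06 on the log2 scale each, while that of Atp5g2 was 0.26. Across the 77 nuclear members with a mean of at least 3 log2 CPM, this correlation and transcript length (log2 bases) had r = -0.485 and rho = -0.362; genes are not independent replicates. The 7 core subunits of complex I had a median r of 0.58, a median residual SD of 0.073 and a median transcript of 1623 bases, against 0.78, 0.10 and 732 bases for the 29 accessory subunits. Whether length, level or role goes with the difference was not tested, and these splits were chosen after the values were seen.

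**Figure D5:**
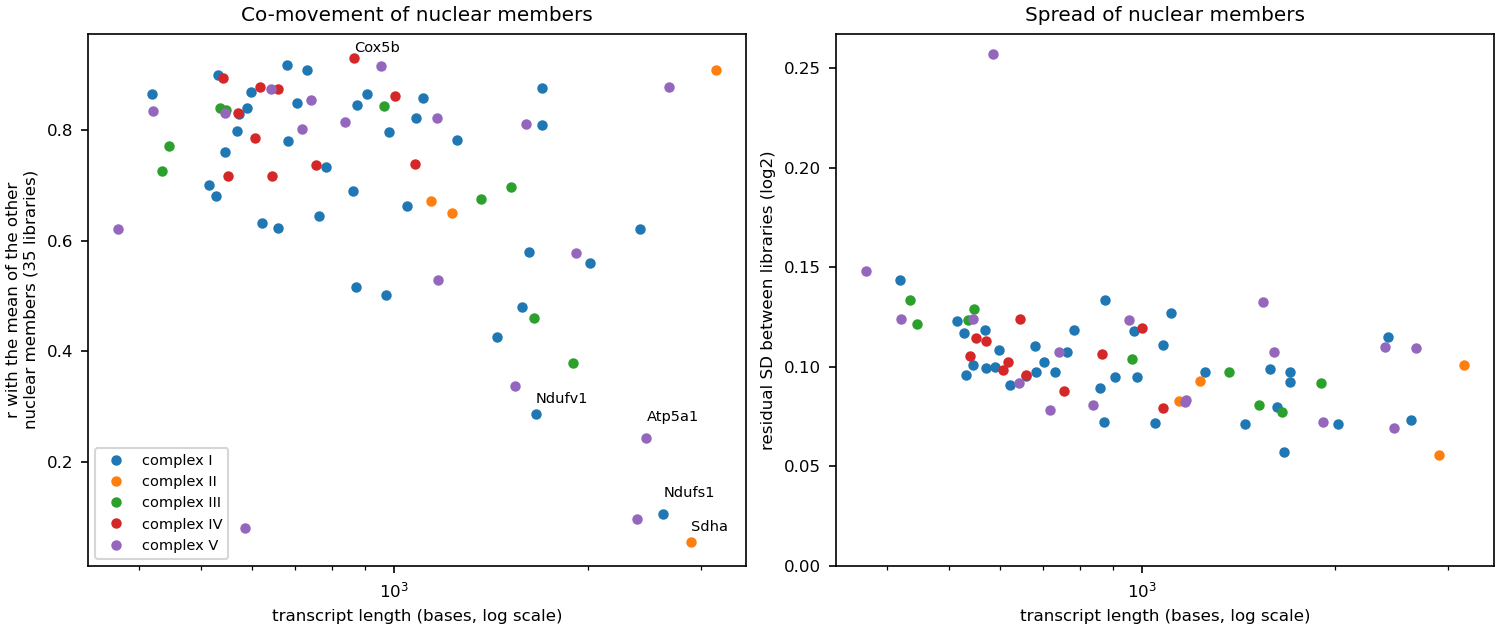
Correlation of each nuclear member with the mean of the other nuclear members over 35 libraries (left) and its residual SD (right) against transcript length in bases on a log scale, for 77 members with a mean of at least 3 log2 CPM, coloured by complex in both panels. Sdha, Ndufs1, Ndufv1 and Atp5a1, at the lower right of the left panel, have r from 0.06 to 0.29, and Cox5b is at 0.93; the shorter Atp5g2 (0.08) is low as well.

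The promoters of the nuclear members were searched for letters bound by factors known for this pathway. RefSeq promoters (GRCm38.p6, from 250 bases before to 50 after each gene's start) matched 64 of the 82 nuclear members by symbol. All motifs were searched on both strands. The NRF1 motif, whose letters are the capitals in the first 3 stretches below, was found in 17 (26.6%), against 5.19% of 27025 gene symbols. A symbol counted if any of its promoters matched. The ETS motif CCGGAAG, which the GABP factor binds, was in 16 (25%, against 9.93%), and the YY1 motif AAGATGGC in 9 (14.1%, against 3.19%). The Sp1 motif GGGCGG, common in promoters without regard to pathway, was in 39.1%, against 38.2%. Any of the first 3 was in 56.2%, against 16.4%. The reference shares cover every gene of the promoter set, expressed in this tissue or not. Shares over the genes of the expression matrix alone were not computed. A match describes letters only, and no binding was measured. Whether a match goes with co-movement was not tested. Of the members named for the highest correlations, Cox5b had none of the first 3 motifs, while Ndufb8 and Atp5j2 had a YY1 match. Among those named for low ones, Sdha and Atp5g2 had an NRF1 match, while Ndufv1, Cox6b2 and Cox7a1 had none of the 3. The stretches below belong to members described above and show each kind of match, in capitals, 5′ to 3′ on the gene's own strand.
Ndufa6, NRF1, chr15:82354249-82354278: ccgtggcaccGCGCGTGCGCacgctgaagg
Atp5o, NRF1, chr16:91931602-91931631: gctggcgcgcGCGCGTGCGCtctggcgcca
Cox6a1, NRF1, chr5:115349056-115349129: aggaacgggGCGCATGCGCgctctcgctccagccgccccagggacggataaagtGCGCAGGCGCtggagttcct
Ndufb6, ETS, chr4:40279636-40279665: atcgtccttgttCTTCCGGtcccctcccct
Ndufs7, YY1, chr10:80249462-80249491: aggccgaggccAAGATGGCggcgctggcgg
The Ndufs7 gene is on the plus strand and the others are on the minus strand. Cox6a1 holds 2 NRF1 matches, and in Ndufa6, Atp5o and Ndufb6 the motif's own letters stand on the opposite strand. The matches in Ndufa6, Atp5o and Ndufs7 lie within the first 50 bases after the gene's start in RefSeq, those of Cox6a1 and Ndufb6 before that start. The GENCODE starts of Ndufa6, Atp5o, Cox6a1 and Ndufs7 lie further upstream than the RefSeq starts.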

How the data were processed

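RNA was sequenced from mPFC punches of 35 samples (RNeasy extraction, a directional NEBNext kit and paired-end Illumina reads, per the labels' protocols). The authors deposited log2 CPM values, made with limma (version not given) per the submitters' processing notes and named as a voom matrix. The aligner, counter, genome build and low-count filter were not given in the sources used here. Each value matched log2 CPM of reads plus 0.5 over an effective library size, with whole reads within 0.01 for all values. All columns were mapped to samples by their titles.

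From these values limma 3.58.1 (R 4.3.3) fitted 8 group means and labelled sex over all 35 libraries, with a trended prior, and p-values were adjusted by Benjamini-Hochberg over 14870 genes (threshold 0.05, two-sided). The fit was tested on simulated data with genes drawn independently and with changes larger than most of those described here. That test does not cover small shifts shared by many genes. Replicate numbers follow accession order and pair nothing. Labels do not say that libraries come from separate animals, and a p-value then covers only the differences among these samples, which may be technical. Transcript lengths and positions are from GENCODE vM21 (GRCm38, 94 members by symbol and 1 by synonym, and for Atp5o the lower-numbered of a pair of loci with that symbol); they are used as annotation only, since the authors' build is unknown.

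Members and lists were chosen with earlier results of these data known. The named genes are, in each comparison described at length, the member with the smallest p in each nuclear complex and among the mt- members, with further members named for their values. Which comparisons are described at length, the limit of 3 log2 CPM, the length measure (first the longest, then the median principal transcript, which moved the relation little), the core and accessory split and the promoters shown were chosen after seeing values. Alternatives were no sex term, the compared groups only, voom weights, a mean of at least 0, equal medians, totals without mt- genes, a RIN term, leaving out doubtful libraries and leaving out each library in turn.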

Additional observations from a re-analysis of the deposited data

Results flagged for a closer look

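Of 77 groups screened for a library far from the rest, 8 were marked, and chance marks about 1 in 20. The members screened were chosen after their values were seen. WT_control 2 had the lowest nuclear deviation of its group (-0.19) and the lowest Uqcrfs1 (5.98 log2 CPM). KO_abx_and_acetate 2 had the highest mt- deviation (0.41) and the highest mt-Co1 (14.5). Ndufs7 was high in WT_control 4 (6.25) and low in KO_control 3 (6.06). Atp5o was low in the library labelled WT_acetate 4 (6.67), and mt-Nd6 was high in the library labelled WT_acetate 5 (9.83); both of those libraries go against their sex label. Ndufa6 was higher with abx than with control in WT and lower in KO, and the difference between these changes of group means was -0.24. In the fit with sex that difference was -0.23 ± 0.12 (limma, unadjusted p = 0.0588), which did not pass the threshold.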

How the results depend on the processing

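Under every alternative run, no OXPHOS member passed the adjusted threshold in any comparison, and each median log2 fold moved by less than the spread between libraries. This covers 143 values of each kind under other settings and 195 with 1 library left out. The spread was 0.048 to 0.13 for the nuclear members and 0.10 to 0.21 for the mt- members, depending on the comparison. It was larger than several of the medians, so a median could change sign and still move by less than it. Equal medians shifted single libraries by -0.026 to 0.069, and totals without mt- genes by -0.10 to -0.065. In KO against WT under abx, 78 to 82 nuclear members were below 0 over the other settings. The count of nuclear members with an unadjusted p under 0.05 was less steady. Beside the values given with each result, acetate against control in WT gave 20 in place of 13 with equal medians, and abx_and_acetate against abx in KO 14 in place of 8 with no sex term. Abx against control in WT gave 3 in place of 6 without the 3 libraries of intermediate Acr and 10 without the 4 that go against their sex label. Abx_and_acetate against control gave 2 to 11 in place of 4 in WT over the other settings, and 4 in place of 8 in KO with a RIN term. The difference between genotypes in the effect of abx gave 6 in place of 1 without the 4 libraries that go against their sex label. The nuclear median of abx_and_acetate against abx in WT changed sign with equal medians (0.006), and that of the difference between genotypes in the effect of abx_and_acetate changed sign with equal medians (-0.004) and with the compared groups only (-0.006). The edgeR count test was not run, since the deposited values are log2 values. The fit of the compared groups only was not repeated for KO against WT over treatments, where it is the same fit. No paired analysis was possible because the labels give no replicate numbers. Depth allows Cox7a1 and Cox6b2, near or below 0 log2 CPM, little precision: their residual SDs were 0.48 and 0.59.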

Other observations

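Cox4i2 and Ndufa4l2, which are known from vascular cells, were set against the mean of 5 pericyte markers over 35 libraries after group and sex were fitted (2 relations, chosen after values were seen). For Cox4i2, r was 0.489 (permutation test, two-sided, p = 0.00294, adjusted p = 0.00588) and rho 0.462 (permutation p = 0.00565, adjusted p = 0.0113). Without the 2 libraries farthest from the median of the markers, r was 0.313, so the relation rests in part on them. For Ndufa4l2, r was 0.188 (permutation test, p = 0.277, adjusted p = 0.277) and rho 0.154 (permutation p = 0.377, adjusted p = 0.377), and without the 2 libraries r was 0.176. The median r of the other nuclear members with the same markers was 0.226. The permutations treat the 35 residuals as exchangeable, although group and sex were fitted first, and the adjustment covers only these 2 relations. The p-values are therefore approximate.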
